A study of Mus musculus with 10 samples.

Results

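Transient receptor potential (TRP) cation channels were followed through experimental stroke in wild-type (WT) mice and in mice that overexpress the inducible heat shock protein Hsp72 (Hsp72Tg). The members were Trpc1, Trpc4, Trpc5, Trpc6, Trpm2, Trpm3, Trpm4, Trpm7 and Trpv2, 9 of the 18193 genes measured. The group was chosen by Trpc4, which read lower in Hsp72Tg than in WT after stroke, so that difference is a description here and carries no test. All 9 members had a probe set that the platform annotation gives exactly 1 symbol. They had 21 such probe sets together, and for each gene the one with the highest mean over the 10 arrays was kept. Values are log2 expression values from robust multi-array averaging (RMA), and a level of one gene is not comparable with that of another, because probes differ in how strongly they hybridise.

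Total RNA came from 1 brain hemisphere of male mice, 24 h after the operation. The stroke groups had middle cerebral artery occlusion (MCAO), which cuts the blood supply to striatum and overlying cortex, and their ischemic hemisphere was taken. Control mice had sham surgery and gave the hemisphere of the same side. Each genotype gave 2 arrays of sham mice (WT sham, Hsp72Tg sham) and 3 arrays of MCAO mice (WT MCAO, Hsp72Tg MCAO). The labels do not give age, strain background, or the promoter and construct of the Hsp72 transgene. In hemisphere RNA, fewer cells of a type and less RNA per cell cannot be told apart.

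TRP channels are tetrameric cation channels of the plasma membrane and of intracellular membranes. TRPC channels open downstream of receptors that activate phospholipase C. TRPM channels respond to varied cues, from ADP-ribose to intracellular calcium, and TRPV2 passes calcium in neurons and in cells of the immune system. In brain they are known mostly as routes of calcium and sodium entry in neurons, glia and vessels, and several are studied in ischemic injury.

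The arrays were alike in scale, with medians from 6.67 to 6.73 and lower quartiles from 5.14 to 5.21. Hsp72Tg MCAO 1 stood apart from its group on the first principal component, at -12.9 where the other MCAO arrays were at 11.7 or above and the sham arrays at -20.7 or below. WT sham 1 stood apart in cerebellar markers, with a mean of 9.48 over 7 genes against 6.94 to 7.22 on the other 9 arrays. Some of the values that moved without either array are given with and without it. Hspa1b, one of the mouse genes for Hsp72, read 9.12 and 9.16 in Hsp72Tg sham and 9.38 and 9.48 in WT sham. It read 11.85 to 12.84 in WT MCAO and 12.05 to 13.96 in Hsp72Tg MCAO. This probe set did not show higher Hsp72 RNA in the transgenic sham arrays, and whether it detects the transgene's RNA is not known from the labels.

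Trpc4, a receptor-operated channel with high expression in lateral septum and other forebrain regions, lay on opposite sides of its sham level after MCAO in the 2 genotypes. It is the member on which the group was selected. It read 8.17 and 8.22 in WT sham, and 8.25 and 8.21 in Hsp72Tg sham. After MCAO it read 8.56, 8.56 and 8.67 in WT and 8.12, 7.89 and 7.85 in Hsp72Tg. All 3 WT MCAO arrays thus lay above all sham arrays, and all 3 Hsp72Tg MCAO arrays below them. Relative to the sham arrays of the same genotype the difference was 0.40 (SE 0.10) in WT and -0.28 (SE 0.10) in Hsp72Tg. After MCAO the transgenic arrays were lower than the WT arrays by a log2 difference of -0.64 (SE 0.09), a level 1.56-fold lower. That difference was -0.73 without Hsp72Tg MCAO 1, the array that stood apart, and lay between -0.73 and -0.59 with any 1 array left out.

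The 3 probe sets of Trpc4 gave different sizes for the genotype difference after MCAO. The dimmest, 1423579_a_at, read below the median of every array. It was 5.61, 5.61 and 5.84 in WT MCAO against 5.52, 5.34 and 5.29 in Hsp72Tg MCAO, a difference of -0.31 with no overlap. The remaining one, 1446366_at, lay below the median on 7 arrays. It read 6.71, 6.96 and 6.67 in WT MCAO against 6.55, 6.49 and 6.75 in Hsp72Tg MCAO, a difference of -0.18 with overlap. All 3 probe sets were higher in every WT MCAO array than in every WT sham array. The means were 0.40 for the kept probe set, 0.20 for 1423579_a_at and 0.22 for 1446366_at. Trpc4 was selected on its WT MCAO values, so this is a description. The share of all genes higher without overlap in WT is not given here. In Hsp72Tg, MCAO minus sham was -0.28 for the kept probe set, -0.31 for 1423579_a_at and 0.11 for 1446366_at, so the last did not share the direction. Averaged over its 3 probe sets, Trpc4 differed between the genotypes after MCAO by -0.38.

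The promoter of Trpc4 is shown beside that of Trpc5, its closest relative in the family, because the group was chosen by the genotype difference of Trpc4 while that of Trpc5 was small. The windows are the 250 bases before the RefSeq transcription start, from the GRCm38.p6 assembly, written 5′ to 3′ on the gene's strand. Trpc4's is chr3:54155807-54156056 on the plus strand and Trpc5's chrX:144688181-144688430 on the minus strand. Capitals mark matches, on either strand, to a GC box (GGGCGG) or a TATA box (TATAAA).
Trpc4: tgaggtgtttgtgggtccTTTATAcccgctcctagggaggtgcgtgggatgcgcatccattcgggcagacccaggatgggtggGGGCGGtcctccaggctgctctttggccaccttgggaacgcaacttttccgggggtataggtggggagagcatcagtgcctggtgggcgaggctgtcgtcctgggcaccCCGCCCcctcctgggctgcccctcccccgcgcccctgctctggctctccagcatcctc
Trpc5: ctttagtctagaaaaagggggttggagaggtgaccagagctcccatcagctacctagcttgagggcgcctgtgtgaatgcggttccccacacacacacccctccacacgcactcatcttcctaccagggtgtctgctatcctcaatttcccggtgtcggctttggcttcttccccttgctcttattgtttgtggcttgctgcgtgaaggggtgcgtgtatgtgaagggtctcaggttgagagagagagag
The Trpc4 window had a GC content of 66.4% and held 2 GC boxes and 1 TATA box on the reverse strand. The Trpc5 window had a GC content of 54.4% and held neither. Over all 32851 promoter windows of that length, 32.7% held a GC box and 12.4% a TATA box. Neither window held the core of a heat shock element (GAANNTTC), the site that heat shock factors bind, which 6.69% of all windows held. Neither held an AP-1 site (TGANTCA, in 6.75%) or a cAMP response element (TGACGTCA, in 1.55%). RefSeq windows matched 8 of the 9 members, all but Trpm4, with 11 windows in all. Among these, the heat shock element core was in 1 of 2 windows of Trpm3 and 1 of 3 of Trpv2. A match of letters is a description of the window and not a bound site.

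**Figure D1:**
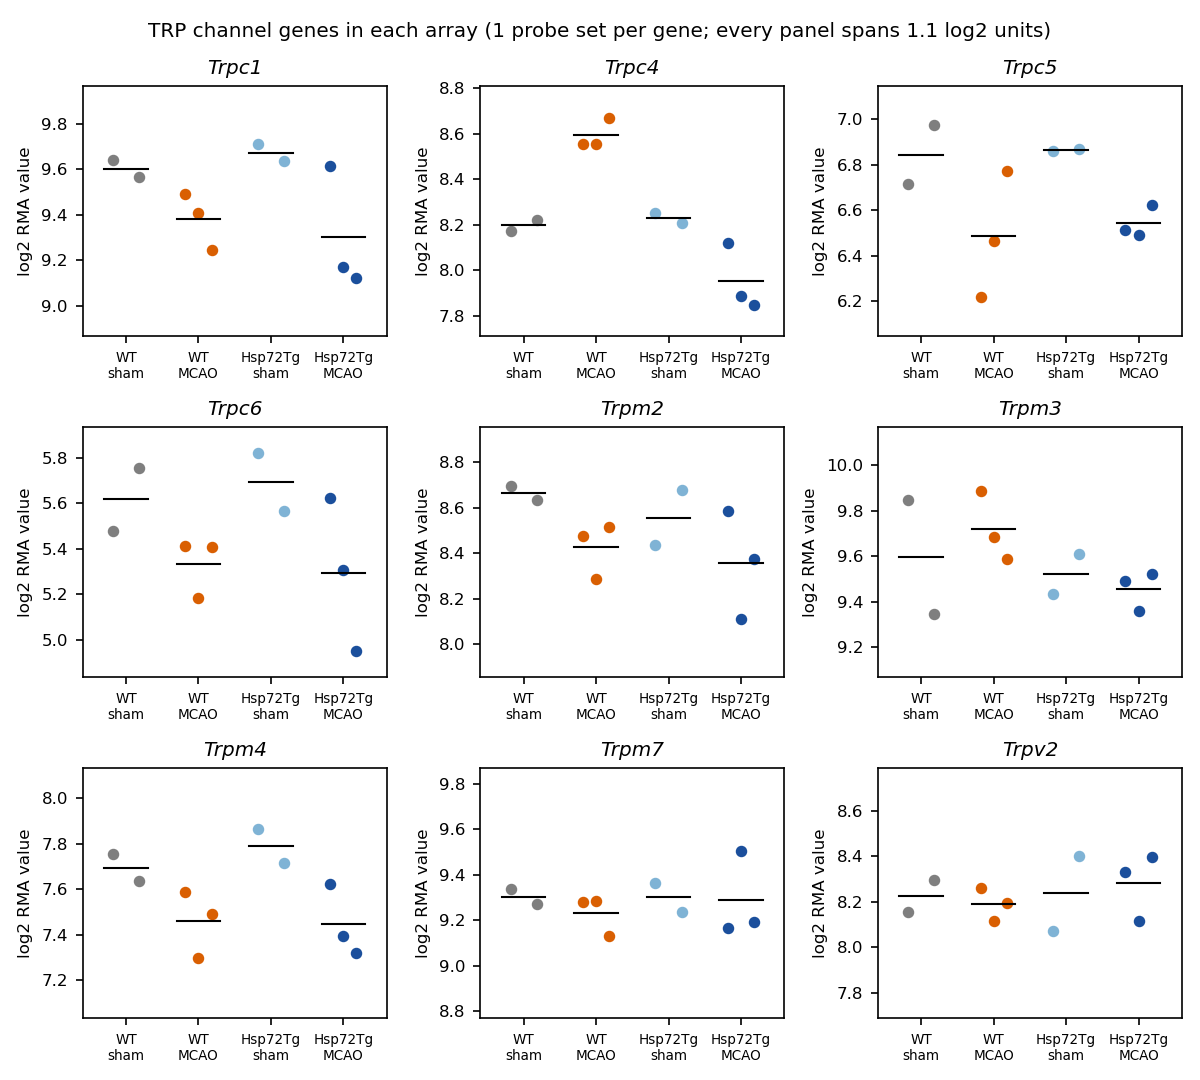
Log2 RMA value of the kept probe set of each of the 9 TRP members in each array (points), by group, with the group mean as a bar and a separate scale for each panel. Trpc4 lies between 8.56 and 8.67 in WT MCAO and between 7.85 and 8.12 in Hsp72Tg MCAO, on either side of the sham arrays at 8.17 to 8.25. The 6 MCAO arrays of Trpm4 lie below its 4 sham arrays.

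MCAO was then compared with sham for the other members, in each genotype and over both, with limma fitted to all genes and Benjamini-Hochberg adjustment. None of the 9 members passed an adjusted p of 0.05 in WT, where 0.0550% of all genes passed, in Hsp72Tg, where 0.0220% passed, or over both genotypes, where 1.46% passed. Their values were mostly lower after MCAO, in 7 of 9 members in WT, 8 of 9 in Hsp72Tg and 6 of 9 over both. Of all genes, 56.7% were lower in value in WT and 55.6% in Hsp72Tg. The Hsp72Tg count includes Trpc4, whose low values on these arrays chose the group. The members' median over both genotypes was -0.22, against -0.03 over all genes, of which 57.5% were lower in value. At an unadjusted p under 0.05 over both genotypes, 4 members were lower (Trpc1, Trpc5, Trpc6 and Trpm4), where 10.8% of all genes were. In WT 1 member was lower at that level (Trpc5; 4.52% of all genes). In Hsp72Tg 3 were (Trpc1, Trpm4 and the selected Trpc4; 7.29% of all genes).

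Trpc1, a widely expressed TRPC subunit that assembles with other TRPC proteins, had lower values after MCAO in both genotypes. It read 9.64 and 9.57 in WT sham against 9.49, 9.41 and 9.24 in WT MCAO, and 9.71 and 9.64 in Hsp72Tg sham against 9.62, 9.17 and 9.12 in Hsp72Tg MCAO. The MCAO arrays lay below the sham arrays of their own genotype, although Hsp72Tg MCAO 1 at 9.62 lay above WT sham 2. The difference over both genotypes was -0.30 (SE 0.10, limma adjusted p = 0.168). In Hsp72Tg it was -0.37 (SE 0.15) and in WT -0.22 (SE 0.15). Its other probe set, 1421095_a_at, gave -0.37 (SE 0.19) over both genotypes.

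Trpc5, a receptor-operated channel of neurons that is closely related to Trpc4, did not share the pattern of Trpc4. It read 6.71 and 6.98 in WT sham and 6.22, 6.47 and 6.77 in WT MCAO, with WT MCAO 3 above one of the sham arrays. In Hsp72Tg it read 6.86 and 6.87 in sham and 6.51, 6.49 and 6.62 after MCAO, with no overlap. The difference over both genotypes was -0.34 (SE 0.11, limma adjusted p = 0.131). It was -0.36 (SE 0.15) in WT and -0.32 (SE 0.15) in Hsp72Tg. The WT value was -0.23 without WT MCAO 1 or without WT sham 2.

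Trpc6, a channel opened by diacylglycerol and known in neurons for calcium entry linked to survival, was the dimmest member, below the median of all 10 arrays. It read 5.48 and 5.75 in WT sham and 5.41, 5.18 and 5.41 in WT MCAO. It read 5.82 and 5.57 in Hsp72Tg sham and 5.62, 5.30 and 4.95 in Hsp72Tg MCAO, where Hsp72Tg MCAO 1 lay between the sham arrays. The WT groups did not overlap. The difference over both genotypes was -0.34 (SE 0.13, limma adjusted p = 0.198). In WT it was -0.28 (SE 0.19), or -0.42 without WT sham 1 and -0.15 without WT sham 2.

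Trpm4, a sodium-permeable channel opened by intracellular calcium and studied with the sulfonylurea receptor SUR1 (Abcc8) in brain oedema, was the only member whose 6 MCAO arrays all lay below its 4 sham arrays. It read 7.76, 7.64, 7.87 and 7.72 in the sham arrays of both genotypes, 7.59, 7.30 and 7.49 in WT MCAO, and 7.62, 7.40 and 7.32 in Hsp72Tg MCAO. Of all genes, 3.41% were lower without overlap in this way. The difference over both genotypes was -0.29 (SE 0.09, limma adjusted p = 0.123), a level 1.22-fold lower. It was -0.23 (SE 0.13) in WT, or -0.15 without WT MCAO 2, and -0.35 (SE 0.13) in Hsp72Tg.

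Trpm2, a calcium-permeable channel that ADP-ribose and oxidative stress open, was slightly lower in mean after MCAO. It read 8.70 and 8.63 in WT sham and 8.48, 8.29 and 8.52 in WT MCAO, without overlap. In Hsp72Tg it read 8.43 and 8.68 in sham and 8.59, 8.11 and 8.38 after MCAO, with overlap. The difference over both genotypes was -0.22 (SE 0.10, limma adjusted p = 0.28), and its other probe set gave -0.15 (SE 0.08).

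The other three members stayed near 0 in the comparison of MCAO with sham. Trpm3, a channel gated by the steroid pregnenolone sulfate and expressed in choroid plexus, differed over both genotypes by 0.03 (95% interval -0.21 to 0.27). Trpm7, a channel fused to a protein kinase that carries magnesium, zinc and calcium, differed by -0.04 (interval -0.23 to 0.15) and read 9.13 to 9.51 over all 10 arrays, highest in Hsp72Tg MCAO 2. Trpv2 differed by 0.00 (interval -0.20 to 0.20) and read 8.07 to 8.40, with both its lowest and its highest value in Hsp72Tg sham. The 4 probe sets of Trpm7 ranged over both genotypes from -0.15 to 0.06. In WT alone Trpm3 differed by 0.12, or 0.37 without WT sham 1 and -0.13 without WT sham 2.

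Without overlap of the groups, 4 members were lower in WT MCAO than in WT sham (Trpc1, Trpc6, Trpm2 and Trpm4), where 22.5% of all genes were. In Hsp72Tg Trpc1, Trpc5 and Trpm4 were lower without overlap, where 12.8% of all genes were, and so was Trpc4, whose low values on these arrays chose the group. Trpc1, by its kept probe set, and Trpm4 were thus lower without overlap in both genotypes. The other Trpc1 probe set, 1421095_a_at, was lower without overlap in WT only. The share of all genes lower without overlap in both genotypes was not counted.

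Whether members passed depended on the array Hsp72Tg MCAO 1. That array was singled out on these same data because it lay nearest the sham arrays on the first principal component. Leaving it out favours larger MCAO differences, so the passes below are a description. Without Hsp72Tg MCAO 1, 12.4% of all genes passed over both genotypes, against 1.46% with all arrays. Of the 9 members 3 were among them, all lower. Trpc1 fell by 0.37 (SE 0.08, limma adjusted p = 0.0123), Trpc6 by 0.42 (SE 0.11, adjusted p = 0.0341) and Trpm4 by 0.33 (SE 0.08, adjusted p = 0.0305). Trpc5 at -0.33 (adjusted p = 0.0925) and Trpm2 at -0.28 (adjusted p = 0.0826) did not pass. In Hsp72Tg alone, Trpc1 fell by 0.53 without that array (adjusted p = 0.0245), in a fit where 6.49% of all genes passed. When WT sham 1 was left out as well, 1 member passed over both genotypes, Trpc6 (adjusted p = 0.0499), where 6.47% of all genes passed. In both of these fits 1 of 9 members is near the share of all genes.

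**Figure D2:**
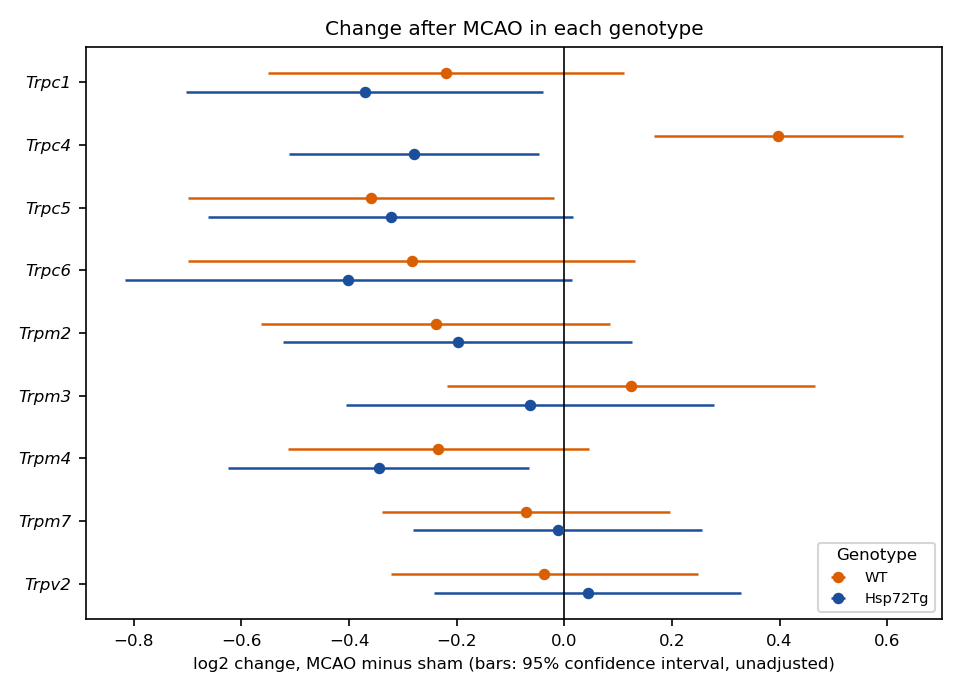
MCAO minus sham of each TRP member (log2 difference, points) in WT and in Hsp72Tg, with the 95% interval from limma as a bar. Trpc4 is at 0.40 in WT and -0.28 in Hsp72Tg, while Trpc1, Trpc5, Trpc6, Trpm2 and Trpm4 are below 0 in both genotypes.

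Neuronal markers were lower in mean than in sham on the MCAO arrays other than Hsp72Tg MCAO 1. The mean log2 value of 9 general neuronal markers was 12.49 to 12.54 in the sham arrays, 12.26 to 12.39 in WT MCAO, and 12.55, 12.25 and 12.14 in Hsp72Tg MCAO. All 9 had a lower value after MCAO over both genotypes, with a median of -0.19, and 0 passed. The 7 striatal projection neuron markers measured averaged 10.36 to 10.44 in sham, 9.27 to 9.50 in WT MCAO, and 10.56, 9.75 and 9.31 in Hsp72Tg MCAO, with all 7 lower in value over both genotypes and 0 passing. Hsp72Tg MCAO 1 thus lay above the sham range in both lists. In Trpc1 (9.62), Trpc6 (5.62) and Trpm2 (8.59) it lay within the range of the sham arrays of both genotypes. In Trpc5 (6.51) and Trpm4 (7.62) it lay below all sham arrays. The 7 neutrophil and monocyte markers measured averaged 6.02 to 6.84 in sham and 7.04 to 8.01 in the MCAO arrays other than Hsp72Tg MCAO 1, which read 6.24. That mean was carried mostly by the granule proteins S100a8 and S100a9. On Hsp72Tg MCAO 2 Ngp added to it, at 8.46 against 5.60 to 6.58 on the other arrays. S100a8 read 5.53 to 7.67 in sham, 8.89 to 10.88 in the other MCAO arrays and 6.20 in Hsp72Tg MCAO 1, while the median of the list over both genotypes was 0.18 and 0 of its markers passed. The part of these cell types in the values of the TRP members was not tested.

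**Figure D3:**
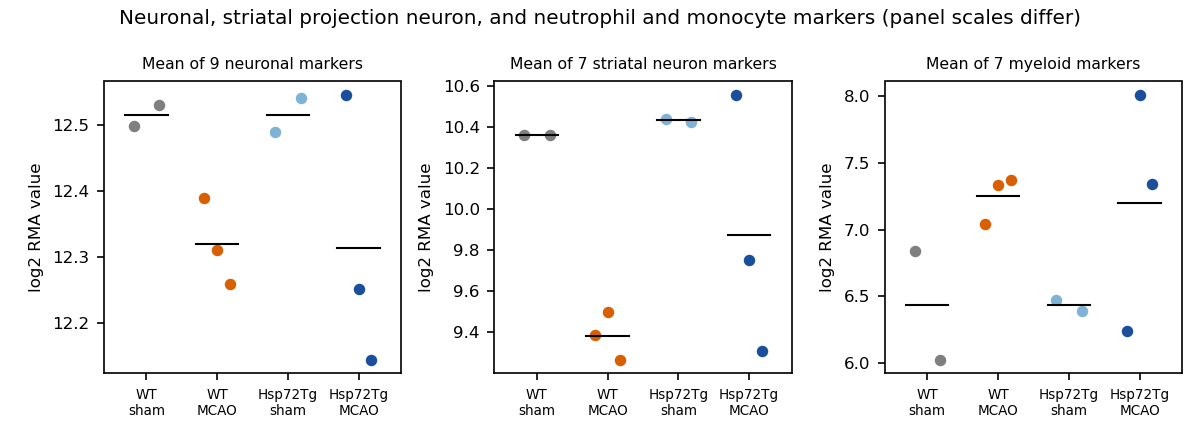
Mean log2 RMA value of 9 neuronal, 7 striatal projection neuron, and 7 neutrophil and monocyte (myeloid) markers in each array (points) by group, with the group mean as a bar and a separate scale for each panel. Hsp72Tg MCAO 1 is at 12.55, 10.56 and 6.24, within or above the sham arrays in the neuronal panels and apart from the other MCAO arrays in all 3.

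The genotypes were compared after sham surgery, the only genotype contrast whose arrays did not choose Trpc4. None of the 9 members passed in limma, as 0% of all genes did, and 0 had an unadjusted p under 0.05 in either direction (0.698% of all genes higher, 0.857% lower). The differences, Hsp72Tg minus WT, ran from -0.11 for Trpm2 to 0.10 for Trpm4, and every adjusted p was 1. The sham groups of each member overlapped, while 12.8% of all genes were higher and 14.2% lower without overlap. The 95% interval was -0.22 to 0.29 for Trpc4 and, at its widest, -0.38 to 0.53 for Trpc6, so differences within those bounds could not be resolved. The dim probe set 1423579_a_at of Trpc4 read 5.42 and 5.55 in WT sham and 5.72 and 5.66 in Hsp72Tg sham, without overlap.

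After MCAO the other members differed little between genotypes, again as a description. Hsp72Tg minus WT was between -0.08 and 0.09 for Trpc1, Trpc5, Trpc6, Trpm2, Trpm4, Trpm7 and Trpv2, and these groups overlapped. Without Hsp72Tg MCAO 1 the difference was -0.24 (SE 0.10) for Trpc1, -0.21 (SE 0.15) for Trpc6 and -0.18 (SE 0.12) for Trpm2. By its kept probe set the Trpc1 groups then no longer overlapped, at 9.17 and 9.12 in Hsp72Tg MCAO against 9.24 to 9.49 in WT MCAO. The groups of its other probe set, 1421095_a_at, still overlapped without Hsp72Tg MCAO 1. With all arrays that probe set differed by 0.17 (SE 0.24), in the opposite direction. The share of all genes that were lower without overlap once Hsp72Tg MCAO 1 was left out was not counted. Trpm3 read 9.89, 9.69 and 9.59 in WT MCAO and 9.49, 9.36 and 9.52 in Hsp72Tg MCAO, a difference of -0.26 without overlap. WT sham of Trpm3 read 9.85 on WT sham 1, the array with high cerebellar markers, and 9.35 on WT sham 2. Of its 6 probe sets 1 more, 1439026_at, was lower without overlap after MCAO (-0.26), by the same amount as after sham surgery (-0.26). Another, 1443723_at, was higher (0.09). Of all genes 4.69% were lower without overlap in this contrast, as were the selected Trpc4 and Trpm3.

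Regional markers were also compared between the genotypes after MCAO, as a description. The mean of 8 thalamic markers was 8.33 to 8.66 in the sham arrays, 8.64 to 8.80 in WT MCAO and 8.26 to 8.42 in Hsp72Tg MCAO. Of these 8 genes 7 were lower in value in Hsp72Tg MCAO than in WT MCAO, with a median of -0.37. Without overlap 5 of the 8 were lower, where 4.69% of all genes were. These 5 include Synpo2 and Plekhg1, the genes most like Trpc4 over the same arrays, which are no independent evidence. The median of 7 hippocampal markers was also -0.37, with 6 lower in value and 2 without overlap. Of 7 septal markers 5 were lower in value and 1 was without overlap, with a median of -0.15, where 56% of all genes were lower in value. The 7 striatal markers were all higher in mean value in Hsp72Tg MCAO, with a median of 0.46. Their list mean was 10.56, 9.75 and 9.31 in Hsp72Tg MCAO against 9.27 to 9.50 in WT MCAO. The highest was Hsp72Tg MCAO 1, the array that stood apart, and Hsp72Tg MCAO 3 lay within the WT range. The median was not recomputed without Hsp72Tg MCAO 1. Of 7 markers of cortical pyramidal neurons 4 were lower, with a median of 0.00. No marker of these 5 lists was below the lower quartile on all arrays. Whether unequal amounts of these regions in the samples account for the values of Trpc4 was not tested.

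The genes most like each member over the 10 arrays were named by Pearson correlation, as a description over arrays that share surgery groups, labelling and normalisation. Trpc4 was closest to Synpo2, an actin-associated protein (r = 0.958), then Plekhg1 (0.888), a guanine nucleotide exchange factor, Fam210b (0.884), Mamdc2 (0.869) and Klra1 (0.868). Synpo2 and Plekhg1 are both on the list of thalamic markers. Synpo2 read 7.58 to 7.75 in the sham arrays, 8.17, 7.98 and 8.15 in WT MCAO, and 7.71, 7.27 and 7.34 in Hsp72Tg MCAO. Klra1 lay below the lower quartile of all 10 arrays. Spearman's rho was lower for Synpo2 (0.770) and Plekhg1 (0.721) than for Fam210b (0.903), Mamdc2 (0.915) and Klra1 (0.927).

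**Figure D4:**
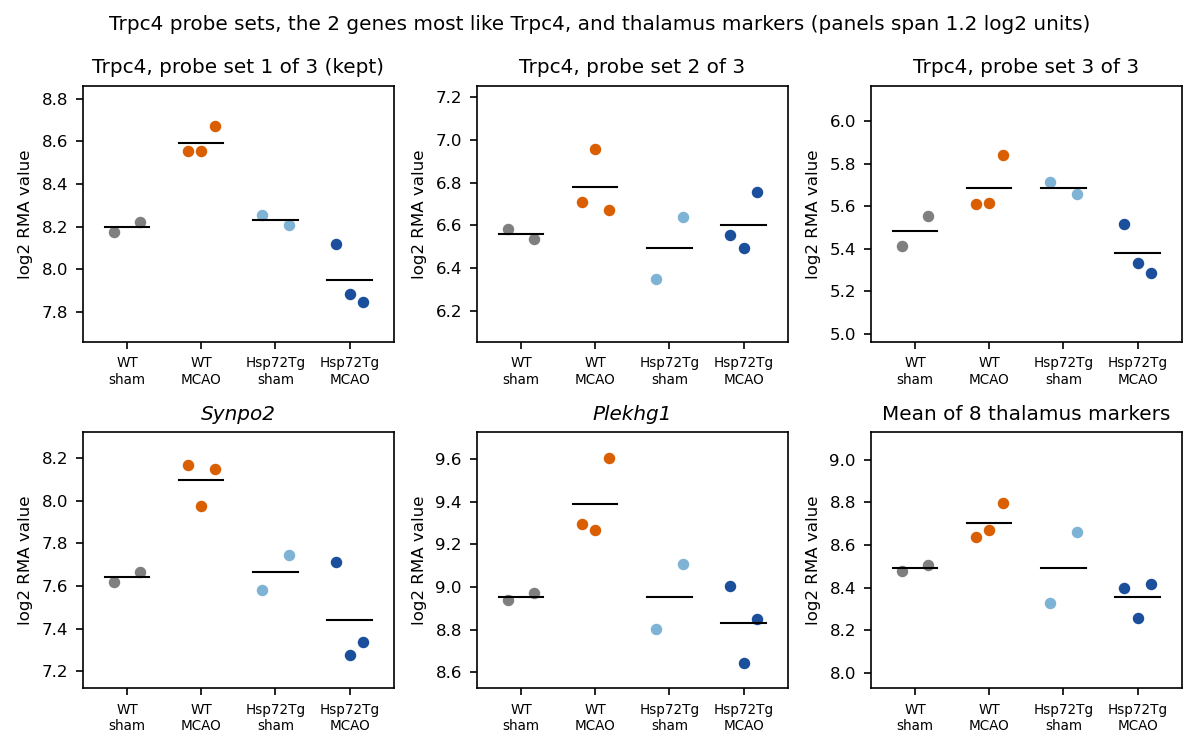
Log2 RMA values by group (points, with group means as bars) of the 3 Trpc4 probe sets, of Synpo2 and Plekhg1, and of the mean of 8 thalamic markers. The kept Trpc4 probe set and Synpo2 are highest in WT MCAO, and the lowest values of each are in Hsp72Tg MCAO. The lowest value of Trpc4 probe set 1446366_at is in Hsp72Tg sham.

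The other members had different nearest genes. Trpc1 was closest to Nckap1 (r = 0.975), a subunit of the WAVE complex that drives actin branching, and Trpm4 to Anks1b (0.946), a postsynaptic scaffold protein. Trpc6 was closest to Tmeff1 (0.975), Trpm2 to Zbtb8b (0.949), Trpm3 to Pcdhb2 (0.901), a protocadherin, and Trpm7 to Mbip (0.961). The nearest genes of Trpc5 (Cyp2e1, 0.930) and Trpv2 (Ccdc54, 0.928) were dim, below the lower quartile of 4 and of all 10 arrays.

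Other TRP genes and the machinery around the channels were read from 4 lists. Of 19 other TRP channels 15 were measured, and 0 passed over both genotypes, in WT, in Hsp72Tg or after sham surgery. At an unadjusted p under 0.05 over both genotypes 2 were higher and 0 lower, where 10.8% of all genes were lower. For this list and the next ones, the share of all genes higher at that level is not given here. The median of the 15 channels over both genotypes was 0.00 to 2 decimals, against -0.03 over all genes. Trpv4, a channel of astrocytes and endothelium that responds to cell swelling, read 5.97 to 6.15 in sham and 6.24 to 6.88 after MCAO, a difference of 0.34 (SE 0.11, limma adjusted p = 0.136). Of 8 endothelial markers 2 rose over both genotypes, with a list median of 0.53, and of 9 astrocyte markers 1 rose, with a median of 0.09. Of all genes 1.46% passed there, in either direction. The part of these markers in the value of Trpv4 was not tested. Pkd2l1, a polycystin channel, differed by 0.29 (adjusted p = 0.222) and Trpc2 by -0.14 (adjusted p = 0.678), or -0.01 without Hsp72Tg MCAO 2. Trpm8, Trpv1, Mcoln3 and Pkd2l2 were below the lower quartile of every array, so their changes of under 0.03 say little.

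Of 10 genes of store-operated calcium entry and calcium release 9 were measured, and 0 passed in any of these comparisons. Over both genotypes 1 was higher and 1 lower at an unadjusted p under 0.05, where 10.8% of all genes were lower. Orai1, the pore subunit of the store-operated channel, differed by 0.31 (SE 0.14, limma adjusted p = 0.265), Orai3 by -0.23 (adjusted p = 0.535; -0.07 without Hsp72Tg MCAO 2) and the scaffold Homer1 by -0.33 (adjusted p = 0.198). Without Hsp72Tg MCAO 1, Homer1 differed by -0.42 (limma adjusted p = 0.0174), in a fit where 12.4% of all genes passed. With all arrays the calcium sensors Stim1 and Stim2 differed by -0.03 and 0.00.

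Of 13 genes that link receptors to TRPC channels (receptors, G proteins and phospholipases C) 12 were measured, and 0 passed in these comparisons. At an unadjusted p under 0.05 over both genotypes 1 was higher and 3 lower, where 10.8% of all genes were lower. The muscarinic receptor Chrm3 differed by -0.47 (SE 0.13, limma adjusted p = 0.101) and phospholipase C beta 1, Plcb1, by -0.45 (SE 0.14, adjusted p = 0.122). Chrm1 differed by -0.33 (SE 0.18, adjusted p = 0.343). Without Hsp72Tg MCAO 1 these 3 fell, by 0.54 (limma adjusted p = 0.0202), 0.55 (adjusted p = 0.00898) and 0.50 (adjusted p = 0.00332). In that fit 12.4% of all genes passed.

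Of 13 binding partners and genes of activator metabolism 12 were measured, and 1 rose over both genotypes, where 1.46% of all genes passed in either direction. This was Sesn2, a stress-induced inhibitor of the growth kinase complex mTORC1, which is not an established partner of a TRP channel. It read 7.26 to 7.57 in sham and 7.75 to 8.17 after MCAO, a rise of 0.51 (SE 0.10, limma adjusted p = 0.0396). The call was lost with the mean over its probe sets (adjusted p = 0.0516) and without any 1 of 8 of the arrays, all but Hsp72Tg MCAO 1 and 2 (adjusted p 0.0633 to 0.176), while the difference stayed between 0.42 and 0.56. The immunophilin Fkbp5 at 0.87 (limma adjusted p = 0.0803) and the potassium channel Kcnj8 at 0.68 (adjusted p = 0.058) did not pass. Both did without Hsp72Tg MCAO 1 (adjusted p = 0.0139 and 0.00191), in a fit where 12.4% of all genes passed. Kcnj8, which is also on the list of pericyte markers, passed too with array weights (adjusted p = 0.0173), trend and robust moderation (0.046), the filter on dim genes (0.0478) and without Hsp72Tg MCAO 2 (0.0441). In these fits 6.13%, 1.52%, 2.07% and 1.22% of all genes passed, in the same order. Abcc8, the SUR1 partner of TRPM4, differed by -0.19 (adjusted p = 0.438). Parp1, which feeds the ADP-ribose that opens TRPM2, differed by -0.17 (adjusted p = 0.628).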

How the data were processed

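The 10 hemisphere samples were hybridised to Affymetrix mouse arrays. The deposited table holds log2 expression values; per the submitters' processing notes the authors used RMA, and the labels and headers read here name no version or setting of it. The values span 3.49 to 14.73. Of 45101 probe sets, 64 controls were left out, 34945 had exactly 1 gene symbol, 932 several and 9160 none. For each of 18193 genes the brightest probe set by its mean was kept; 9010 genes had more than 1. Platform symbols were compared with RefSeq through Entrez identifiers (34741 probe sets matched, 0 symbols changed).

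Group means were fitted over all 10 arrays with limma 3.58.1 in R 4.3.3 (lmFit, contrasts.fit, eBayes; 6 residual and 3.72 prior degrees of freedom), two-sided, with Benjamini-Hochberg adjustment over all genes and a threshold of 0.05. The code was tested on simulated data. Each array is 1 replicate, and the p-values measure the spread between these samples. Correlations between arrays, across genes, were 0.977 to 0.997, and 0 pairs were identical. Same-numbered arrays showed no clear shared deviation (correlations of -0.156 to 0.249), so no block was used in the main fit. With groups of 2 and 3 arrays that check cannot exclude pairing or a shared batch. The contrast that chose Trpc4, and the genotypes' difference in the MCAO change, are described without a test.

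Named genes were the 9 members, the genes of 4 lists that passed, up to 3 per list with the largest change over both genotypes, and the genes most like a member (5 for Trpc4, 1 for the others). Abcc8, Parp1, Stim1 and Stim2 were named after their values were seen, as were the list genes below the lower quartile. The members and lists were chosen with earlier results of these data known, and 164 of 181 listed genes were measured. Promoters come from RefSeq (GRCm38.p6). Alternatives were the replicate block, only the arrays compared, trend and robust moderation, array weights, 2 rescalings, other probe set rules, a filter on dim genes, a threshold of 0.01 and leaving out each array. A fit without WT sham 1 and Hsp72Tg MCAO 1 together was added after seeing the data.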

Additional observations from a re-analysis of the deposited data

Results flagged for a closer look

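The change from sham to MCAO lay on opposite sides of 0 in the 2 genotypes, with every MCAO array above the sham arrays of its genotype in WT and below them in Hsp72Tg, for 4 of the 34 named genes looked at. The difference between the 2 changes was not tested for any of them. For Trpc4 it was -0.68, from 0.40 in WT and -0.28 in Hsp72Tg. For Fam210b it was -0.67, from 0.42 and -0.24. For Mamdc2 it was -0.77, from 0.35 and -0.42. For Klra1, which was dim on all 10 arrays, it was -0.20, from 0.12 and -0.09. Trpc4 was selected on its MCAO arrays, and the other three were named because they resemble Trpc4 over the same arrays, so they are no independent evidence. The share of all genes with this pattern was not counted, so the 4 of 34 has no background to be read against. Groups of 2 and 3 arrays are too small for a formal outlier test of single genes.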

How the results depend on the processing

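Of 9 members, 0 passed in WT except 1 (Trpc4) with array weights and with only the WT arrays fitted, where 7.46% and 5.25% of all genes passed; Trpc4 was selected on its WT MCAO values, so this is no test of it. Leaving out 1 array gave 0 to 1 members in Hsp72Tg (0 to 6.49% of all genes) and 0 to 3 over both genotypes (0.0605% to 12.4%), and leaving out WT sham 1 and Hsp72Tg MCAO 1 together gave 1 over both (6.47%). A lone sham array left by such a fit is assumed to vary like the other groups. For Trpc4, the mean over probe sets moved the genotype difference after MCAO to -0.38 and the difference of the MCAO changes to -0.43.

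Values near 0 changed sign. In WT, Trpm3 (-0.032) and Trpm7 (0.0070) did so with the mean over probe sets, and with 1 array left out Trpm3 ranged from -0.13 to 0.37 and Trpv2 from -0.11 to 0.033. In Hsp72Tg, Trpm3 turned with the mean over probe sets (0.035), and Trpm7 with the replicate block (0.036), quantile normalization (0.014), median centring (0.021) and without both doubted arrays (0.049). With 1 array left out, Trpm3 ranged there from -0.15 to 0.024, Trpm7 from -0.12 to 0.052 and Trpv2 from -0.12 to 0.21. Over both genotypes Trpm7 turned with the block (0.0064) and without both arrays (0.0058), and Trpv2 likewise (-0.027 and -0.0445). With 1 array left out Trpm3 ranged from -0.0945 to 0.15 and Trpv2 from -0.079 to 0.086. After sham surgery, leaving out both arrays turned Trpc5 (-0.11), Trpc6 (-0.062), Trpm3 (0.17), Trpm7 (0.030) and Trpv2 (-0.059). Trpm7 also turned with median centring (0.0087) and the mean over probe sets (0.089). With 1 array left out, Trpc5 ranged from -0.11 to 0.15, Trpc6 from -0.062 to 0.21, Trpm2 from -0.23 to 0.013, Trpm3 from -0.32 to 0.17, Trpm7 from -0.068 to 0.061 and Trpv2 from -0.15 to 0.18. The cause of these shifts was not tested.

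Same-numbered arrays of different groups deviated together at correlations of -0.156 to 0.249, over 0.1 in 2 of 13 pairs, and 4 of the 10 arrays were closest to an array of their own number. With the replicate block 0 members passed in each comparison, and 19 of all genes passed over both genotypes instead of 266. Sesn2 was no longer called (0.49, adjusted p = 0.168). Signal limits the values of Trpc6 and of the dimmest Trpc4 probe set, which lay below the median of every array.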
